A study of Mus musculus with 6 samples.

Results

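The Kruppel-like factors other than KLF1 were followed in MEL cells, a mouse erythroleukemia line grown in suspension, over 4 days of differentiation. The members were taken by name: Klf2, Klf3, Klf4, Klf6, Klf7, Klf9, Klf10, Klf11, Klf13 and Klf16. These are 10 of the 23896 genes with a symbol in the deposited tables, and the RefSeq transcript with the highest mean count over the libraries stands for each gene. The 6 mRNA-seq libraries came from 2 cultures each of cells before induction (day 0), after 2 days in 2% DMSO and after 4 days in it. Day 0 cells are the uninduced line, and no DMSO-free culture at day 2 or day 4 was analysed here, so time in culture and time in DMSO cannot be told apart. MEL is a transformed line, so these cells stand in for, and are not, normal erythroblasts. The comparisons ask how the mRNA of each family member differed between day 0, day 2 and day 4.

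Kruppel-like factors are transcription factors that end in a conserved block of zinc fingers, with which they bind CACCC boxes and GC-rich sites in promoters. Because the fingers are so alike, members can compete for the same sites, and their effect depends on the partner bound by the rest of the protein. KLF1 activates the beta-globin gene and much of the red cell program. KLF3 recruits the corepressor CtBP, and in red cell precursors one of its own promoters is driven by KLF1. KLF9, KLF10, KLF11, KLF13 and KLF16 carry a stretch that binds the Sin3 corepressor, whereas KLF2, KLF4, KLF6 and KLF7 are better known as activators that work with acetyltransferases.

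Libraries held 35294930 to 53899476 transcript counts, and between 50.5% and 58.4% of listed reads fell on no feature. Replicates of day 0 differed most, with a chi-square per degree of freedom of 60.3 over transcripts against 10.8 at day 2 and 16.9 at day 4, where 1 would be counting noise alone. The libraries carried the mRNAs of the labelled cell type. Summed over 9 erythroid marker genes, TMM-scaled counts per 1000000 (CPM, the unit used below for comparisons between days) were 1095 to 1155 before induction, 4279 to 5084 on day 2 and 17650 to 19800 on day 4. Most of the day 4 sum was Hba-a1 (9793 and 11460 CPM) and Hbb-bs (4969 and 5101 CPM). For day 4 against day 0, 8 of the 9 were called higher and 1 lower, Klf1, beside 36.2% and 36.1% of all transcripts tested. Markers of other blood cells were lower and moved as well. The sum over 6 myeloid genes, most of it Spi1, went from between 101 and 122 CPM at day 0 to between 7.45 and 12.5 CPM at day 4. Of the 4 myeloid genes tested, 1 was called lower, Spi1 (log2 fold change −3.66), and 0 higher. All transcripts tested had 36.1% called lower and 36.2% higher in that comparison. The sum over 3 megakaryocyte genes went from between 44.4 and 59.8 CPM to between 15.6 and 16.7 CPM, a fall of Pf4 alone (log2 fold change −2.39), since Gp1ba (2.51) and Gp9 (0.66) were called higher. The sum over 3 mast cell genes went from between 3.36 and 3.79 CPM to between 0.0221 and 0.0277 CPM. The sums over 3 fibroblast genes lay between 0.970 and 3.24 CPM in every library, and those over 4 lymphoid and 3 endothelial genes never passed 0.172 and 0.466 CPM. The part of these other mRNAs in the results below was not tested. In bulk RNA, fewer cells that carry an mRNA and less of that mRNA per cell cannot be told apart.

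The promoters of the members that changed are shown first, since the family binds GC-rich sites such as those found in them. RefSeq entries (GRCm38.p6) were at hand for 8 of the 10 members, with none for Klf10 and Klf16. Each of the 8 had 1 entry, so other promoters of a gene were not searched. Whether the Klf3 window is the promoter driven by KLF1 was not determined. In the 250 bases before the start, both strands were searched for the GC box GGGCGG, for the CACCC-type word CCNCACCC (N is any base) and for the GATA words AGATAA and TGATAA, matches being allowed to overlap. The 4 stretches below hold the bases of that window that lie outside exons annotated by GENCODE on the gene's strand. Each is written 5′ to 3′ on that strand, and capitals mark GGGCGG or its reverse complement. Klf3 lies at chr5:64803271-64803387 on the plus strand, Klf11 at chr12:24651121-24651273 on the plus strand, Klf13 at chr7:63938916-63939165 on the minus strand and Klf6 at chr13:5861239-5861481 on the plus strand.
Klf3: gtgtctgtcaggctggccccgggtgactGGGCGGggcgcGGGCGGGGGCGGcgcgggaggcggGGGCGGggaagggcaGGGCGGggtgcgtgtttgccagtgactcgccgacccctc
Klf11: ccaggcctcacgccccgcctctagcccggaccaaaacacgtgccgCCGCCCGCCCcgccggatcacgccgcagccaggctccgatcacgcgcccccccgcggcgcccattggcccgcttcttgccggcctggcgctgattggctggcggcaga
Klf13: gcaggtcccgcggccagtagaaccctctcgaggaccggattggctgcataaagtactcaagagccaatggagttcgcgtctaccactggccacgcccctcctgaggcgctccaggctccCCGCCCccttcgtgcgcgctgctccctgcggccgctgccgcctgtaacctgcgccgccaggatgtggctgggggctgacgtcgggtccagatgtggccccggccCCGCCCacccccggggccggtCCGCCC
Klf6: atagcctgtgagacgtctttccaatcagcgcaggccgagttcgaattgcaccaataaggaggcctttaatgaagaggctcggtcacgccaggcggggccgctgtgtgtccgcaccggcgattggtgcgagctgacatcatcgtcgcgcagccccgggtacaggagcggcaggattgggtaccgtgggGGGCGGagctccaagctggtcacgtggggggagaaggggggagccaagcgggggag

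The stretches show 5 GC boxes in Klf3, 2 in Klf11, 3 in Klf13 and 1 in Klf6. They are 117, 153, 250 and 243 bases long in that order, so these counts cannot be compared directly. The full windows of 250 bases held 6 in Klf3, 4 in Klf11, 3 in Klf13 and 1 in Klf6. Those of Klf4 and Klf2, which were not detected, held 4 and 2. In the full windows, 7 of the 8 members held GGGCGG, as did 32.7% of 32851 promoters in the same table. Klf9 was the member without it. CCNCACCC was in the windows of 2 of the 8, Klf3 and Klf7, and in 14.9% of all promoters. The Klf7 window, chr1:64121390-64121639 on the minus strand, lies inside the span of the gene given below. Its matches are therefore not upstream of the whole gene. The Klf3 match begins 111 bases before the start, within the first exon that GENCODE gives the gene, and so lies past the stretch shown. AGATAA or TGATAA was in 0 of the 8 windows and in 16.6% of all promoters. These are matches of letters in a short window and not measured binding. G and C made up 59.2% (Klf7) to 78.4% (Klf3) of the bases in the 8 windows. The shares of all promoters were not matched for base composition, and its part in the differences from them was not tested.

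Of the 10 members, 7 were detected, and these 7 also passed the filter on low counts and were tested. Between day 0 and day 2, 4 of the 7 rose (Klf3, Klf10, Klf11 and Klf13) and 1 fell (Klf6), by edgeR's quasi-likelihood test at an adjusted p below 0.05 over 18351 transcripts. Across all transcripts tested, 63.4% were called in that comparison, 31.9% higher and 31.6% lower, so 5 calls in 7 is a share near the background. Between day 2 and day 4, 1 of the 7 was called, Klf10, which rose, beside 31.0% of all transcripts, 14.6% higher and 16.4% lower. For day 4 against day 0, 4 members were higher and 1 was lower, beside 72.3% of all transcripts called, 36.2% higher and 36.1% lower. The median log2 fold change over the 7 members was 0.64, 0.12 and 0.89 in the 3 comparisons, and the median over all transcripts tested was 0.02, −0.00 and −0.00.

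**Figure D1:**
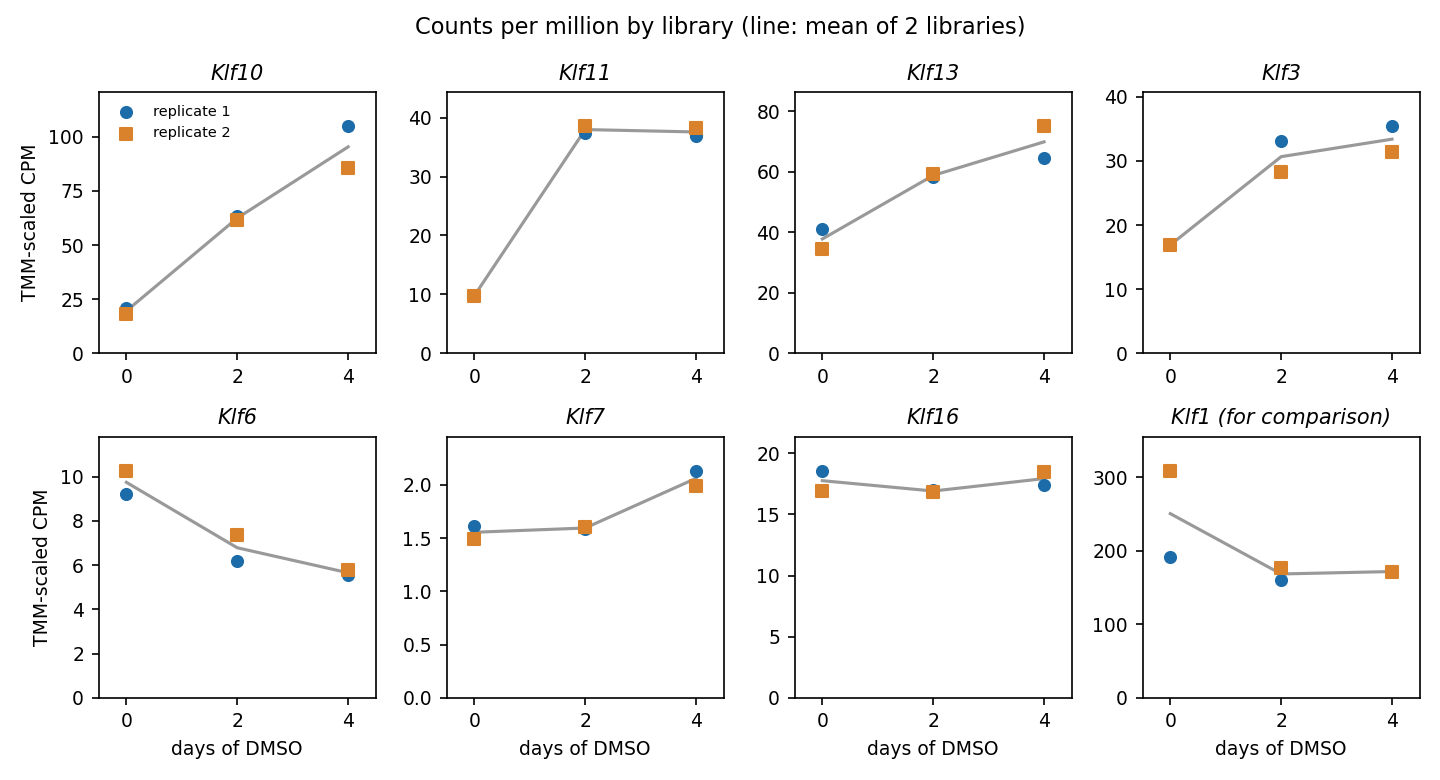
TMM-scaled CPM (vertical axis, from 0, with a scale of its own in each panel) against days of DMSO for the 7 detected members and for Klf1, with a point for each library and a line through the mean of 2 libraries. Klf10 stands at 18.3 and 20.8 CPM at day 0 and at 85.8 and 105 CPM at day 4, Klf11 reaches its day 4 level by day 2, Klf6 falls, and the day 0 libraries of Klf1 lie apart.

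Klf10 encodes a repressor that was found as an early target of TGF-beta and that binds Sin3. The gene lies at chr15:38291464-38300711 on the minus strand, and its transcript NM_013692 has 4 exons. Its level was 20.8 and 18.3 CPM in the day 0 libraries, 63.3 and 61.7 CPM at day 2, and 105 and 85.8 CPM at day 4. Every library of a later day was above every library of an earlier one. The fitted increase was 3.20-fold from day 0 to day 2 (log2 fold change 1.68, SE 0.13, adjusted p 1.61e-06) and 4.88-fold from day 0 to day 4 (log2 fold change 2.29, SE 0.13, adjusted p 1.02e-07). The later step was 1.53-fold (log2 fold change 0.61, SE 0.12, adjusted p 0.00418). That call was lost without day 2 replicate 1 (adjusted p 0.0629), day 2 replicate 2 (0.0563) or day 4 replicate 1 (0.0508), and the adjusted p over all 15 alternatives ran from 1.76e-05 to 0.0629. The second Klf10 transcript, NM_001289471, shares reads with the first and gave log2 fold changes of 1.52 and 0.74 for the earlier and later steps.

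Klf11 encodes the closest relative of KLF10, with a like TGF-beta response and Sin3 contact. It lies at chr12:24651371-24662782 on the plus strand, with 4 exons. Its level was 9.76 and 9.79 CPM at day 0, 37.4 and 38.6 CPM at day 2, and 36.9 and 38.3 CPM at day 4. Both day 0 libraries were below all others, and the day 2 and day 4 libraries overlapped. The rise from day 0 to day 2 was 3.89-fold (log2 fold change 1.96, SE 0.12, adjusted p 3.24e-07). From day 2 to day 4 the log2 fold change was −0.02, with a 95% confidence interval from −0.26 to 0.22 (adjusted p 0.928).

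Klf13 encodes a Sin3-binding member that can act on globin gene promoters. It lies at chr7:63886351-63938915 on the minus strand, with 2 exons, and GENCODE places E030018B13Rik and Gm27252 on the opposite strand within it. Its level was 41.1 and 34.4 CPM at day 0, 58.3 and 59.3 CPM at day 2, and 64.7 and 75.1 CPM at day 4, with no overlap between the days. It rose 1.56-fold by day 2 (log2 fold change 0.64, SE 0.12, adjusted p 0.000931) and 1.85-fold by day 4 (log2 fold change 0.89, SE 0.12, adjusted p 5.80e-05). The later step did not pass (log2 fold change 0.25, SE 0.12, adjusted p 0.140). It passed in a fit of day 2 and day 4 alone (adjusted p 0.0398), but not with DESeq2 (adjusted p 0.156) or with another scaling. Without each library in turn, the log2 fold change of this step ran from 0.13 to 0.35.

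Klf3, the CtBP-binding member, lies at chr5:64803521-64832901 on the plus strand, with 6 exons. Its level was 16.9 CPM in both day 0 libraries, 33.1 and 28.3 CPM at day 2, and 35.4 and 31.4 CPM at day 4. The day 0 libraries were the lowest, and those of day 2 and day 4 overlapped. Klf3 rose 1.81-fold by day 2 (log2 fold change 0.86, SE 0.13, adjusted p 0.000165) and 1.98-fold by day 4 (log2 fold change 0.98, SE 0.13, adjusted p 3.70e-05). Its later step did not pass (log2 fold change 0.12, SE 0.13, adjusted p 0.486).

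Klf6, a broadly expressed activator, was the only member called lower in any of the 3 comparisons. It lies at chr13:5861489-5870393 on the plus strand, with 4 exons. Its level was 9.22 and 10.3 CPM at day 0, 6.20 and 7.37 CPM at day 2, and 5.54 and 5.77 CPM at day 4, again with no overlap between the days. Klf6 fell by 0.52 on the log2 scale to day 2 (SE 0.15, adjusted p 0.0110) and by 0.79 to day 4 (SE 0.15, adjusted p 0.000785). The fall to day 2 missed the threshold without day 2 replicate 1 (adjusted p 0.120) and with libraries scaled to total counts alone (log2 fold change −0.32, adjusted p 0.0847), a scaling that moved the median of all transcripts by 0.20 in this comparison. Its later step did not pass (log2 fold change −0.26, SE 0.16, adjusted p 0.220).

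Klf16, another Sin3-binding member, showed no change that could be detected. It lies at chr10:80567121-80577296 on the minus strand, with 2 exons. Its level was 18.6 and 16.9 CPM at day 0, 17.0 and 16.9 CPM at day 2, and 17.4 and 18.5 CPM at day 4. The day 0 libraries overlapped with those of day 2 and with those of day 4, and both day 4 libraries were above both of day 2. The log2 fold change from day 0 to day 4 was 0.02 (adjusted p 0.915), with a 95% confidence interval from −0.25 to 0.28. That interval takes the TMM scaling as given. With total counts as the scale, the log2 fold change was 0.13.

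Klf7, a relative of KLF6 best known from neurons, was measured at 66 to 90 counts per library. It lies at chr1:64029448-64122345 on the minus strand, with 4 exons, and GENCODE places Gm26649 and Gm13748 on the opposite strand. Its level was 1.62 and 1.49 CPM at day 0, 1.58 and 1.61 CPM at day 2, and 2.13 and 1.99 CPM at day 4. Both day 4 libraries were above the other 4, but the log2 fold change from day 0 to day 4 was 0.41 with a 95% confidence interval from −0.06 to 0.88 (adjusted p 0.106). With total counts as the scale it was 0.52 (adjusted p 0.0488), and with DESeq2 it was 0.39 (adjusted p 0.316).

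Klf2, Klf4 and Klf9 had 0 counts in each of the 6 libraries. Klf2 is known for embryonic globin expression and for endothelial and lymphocyte quiescence, Klf4 for pluripotency and monocyte fate, and Klf9 for its response to glucocorticoid and thyroid hormone. A count of 0 allows up to 3 counts, or 0.0604 to 0.0831 CPM depending on the library, and this limit covers counting error only. They were therefore not detectable at this depth, as were 7785 of the 23896 genes with a symbol. Klf2 lies at chr8:72319062-72321654 on the plus strand, Klf4 at chr4:55527137-55532475 on the minus strand and Klf9 at chr19:23141226-23168129 on the plus strand.

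**Figure D2:**
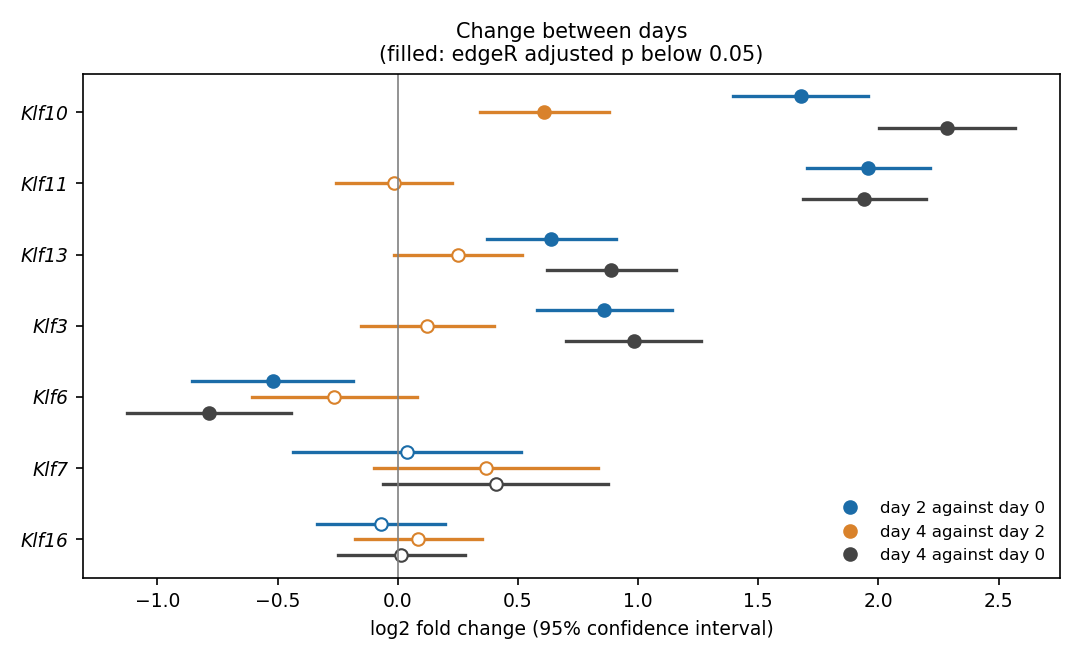
Log2 fold change (horizontal axis) of the 7 tested members in the 3 comparisons between days, with the 95% confidence interval as a line and a filled point where edgeR's adjusted p was below 0.05. The earlier and the net change lie to the right of 0 for Klf10, Klf11, Klf13 and Klf3 and to the left for Klf6, and Klf10 has the one filled point for day 4 against day 2.

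The timing of the rises was then tested, as the log2 fold change of the later step less that of the earlier step. The difference was −1.97 for Klf11 (SE 0.19, adjusted p 8.23e-05), −1.07 for Klf10 (SE 0.21, adjusted p 0.00418) and −0.74 for Klf3 (SE 0.22, adjusted p 0.0256). Thus 3 of the 7 members changed less after day 2 than before it, beside 30.0% of all transcripts with a called difference and 16.9% with a difference below 0. For Klf13 the difference was −0.39 (SE 0.21, adjusted p 0.180) and for Klf6 0.26 (SE 0.27, adjusted p 0.496). The call for Klf10 was lost without day 2 replicate 1 (adjusted p 0.0819) or day 2 replicate 2 (0.0588). The call for Klf3 was lost without day 2 replicate 1 (0.320), day 2 replicate 2 (0.0759) or day 4 replicate 2 (0.0841). The call for Klf11 held in each of the 13 alternatives, with adjusted p values up to 0.00707. That for Klf13 appeared with total counts (adjusted p 0.0277) and without day 0 replicate 1 (0.0221).

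Levels of different genes were set side by side as TPM, which divides counts by transcript length before scaling each library to the same total. At day 0, Klf16 (13.9 to 15.8 TPM), Klf10 (13.2 to 15.5 TPM) and Klf13 (11.8 to 14.6 TPM) overlapped at the top. Klf3 followed at 7.12 to 7.36 TPM, then Klf11 at 5.27 to 5.43 TPM and Klf6 at 4.96 to 5.35 TPM, which overlapped, and Klf7 at 0.428 to 0.480 TPM. At day 2, Klf10 stood alone at 54.1 to 55.9 TPM, and Klf11 (24.6 to 25.2 TPM) overlapped with Klf13 (24.5 to 24.7 TPM). At day 4, Klf10 was at 67.8 to 85.0 TPM, above Klf13 at 24.9 to 28.2 TPM and Klf11 at 22.2 to 22.5 TPM. Klf16 at 16.0 to 16.6 TPM overlapped with Klf3 at 14.4 to 16.7 TPM, and Klf6 was at 3.23 to 3.28 TPM. Klf10 thus moved from a level shared with Klf16 and Klf13 to the highest of the 10 members.

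Summed over all 10 members, the level was 64.2 and 57.2 TPM at day 0, 144 and 141 TPM at day 2, and 169 and 154 TPM at day 4. The Sin3-binding members made up 80.1% and 77.5% of that sum at day 0 and 87.8% and 88.1% at day 4. Klf10 alone held between 23.2% and 24.2% at day 0, between 38.5% and 38.9% at day 2 and between 44.2% and 50.4% at day 4. Klf11 went from between 8.46% and 9.22% at day 0 to between 13.2% and 14.7% at day 4. The other Sin3-binding members detected lost share. Klf13 went from between 20.7% and 22.8% to between 14.8% and 18.4%, and Klf16 from between 24.4% and 24.6% to between 9.48% and 10.8%. The activator-type members (Klf2, Klf4, Klf6 and Klf7) summed to 5.44 and 5.77 TPM at day 0 and to 3.92 and 3.91 TPM at day 4, of which Klf6 held 91.2% and 92.6% at day 0 and 82.5% and 84.0% at day 4. These shares are of mRNA and say nothing of protein. The sums carry no TMM factors, so they also move with the scale of each library, whereas shares within a library do not. Klf16, for one, had a mean of 14.87 TPM at day 0 and 16.95 TPM at day 2. Its mean CPM was 17.76 and 16.91 on those days.

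**Figure D3:**
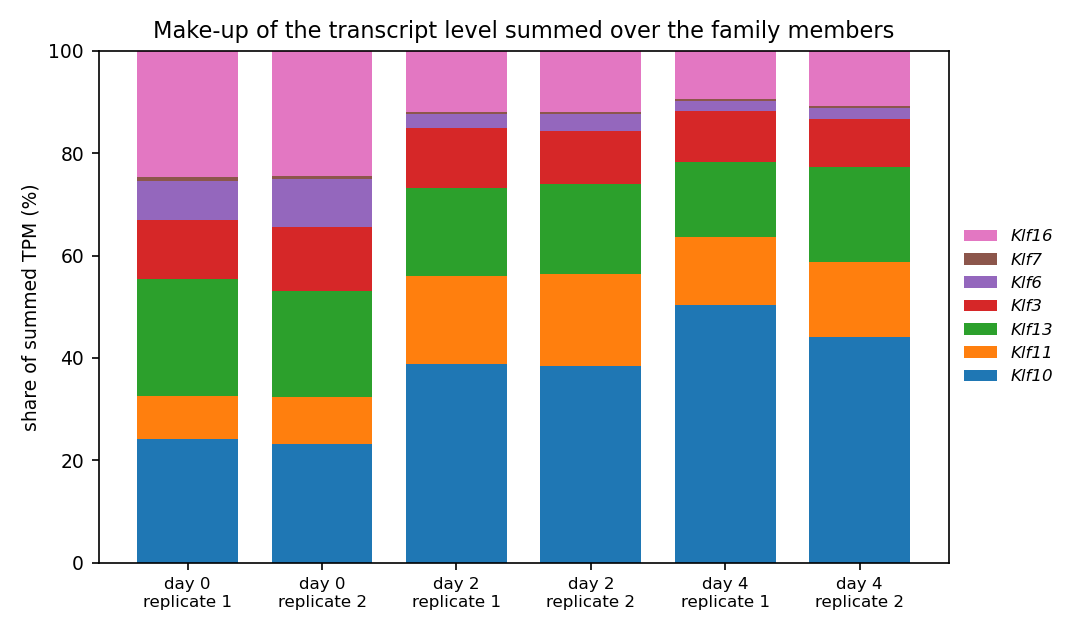
Share of the summed TPM of the family (vertical axis, in percent) held by each of the 7 detected members, with 1 stacked bar per library. The Klf10 block covers at most 24.2% of a day 0 bar and at least 44.2% of a day 4 bar, while the Klf16 block covers at least 24.4% of a day 0 bar and at most 10.8% of a day 4 bar.

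Klf1, which shares the family's binding sites and stands here for comparison, was at 192 and 309 CPM at day 0, 160 and 177 CPM at day 2, and 173 and 171 CPM at day 4. Its day 0 libraries lay further apart than those of any other day. The log2 fold change from day 0 to day 4 was −0.54 (SE 0.18, adjusted p 0.0188), and the call depended on single libraries, as the log2 fold change was −0.17 (adjusted p 0.156) without day 0 replicate 2, −0.55 (0.0645) without day 4 replicate 1 and −0.54 (0.0673) without day 4 replicate 2. From day 0 to day 2 it was −0.57 (adjusted p 0.0176), with the call lost without day 0 replicate 2 (−0.20, adjusted p 0.122), day 2 replicate 1 (−0.50, 0.132) or day 2 replicate 2 (−0.65, 0.0628), and with total counts as the scale (−0.37, 0.0836). Of the TPM summed over Klf1 and the 10 members, the members held 18.4% and 11.4% at day 0, 33.8% and 31.2% at day 2, and 37.8% and 36.3% at day 4. The share was higher in every day 2 and day 4 library than in either day 0 library.

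Among 16 relatives that are not members, namely Klf1, other Kruppel-like factors and the Sp factors, 6 could be tested and 6 were at 0 in every library. The widely expressed factors Sp1 and Sp3, chosen after their values were seen, did not pass from day 0 to day 4 (log2 fold changes −0.06 and 0.07), but Sp3 rose to day 2 (0.42, adjusted p 0.00679) and fell after it (−0.36, adjusted p 0.0341). Sp4 rose by a log2 fold change of 0.64 (SE 0.15, adjusted p 0.00230) and was the only relative called higher at day 4, as Klf1 was the only one called lower. That is 2 of 6 called, beside 72.3% of all transcripts. The median of the 6 was 0.12. In the earlier step 2 relatives rose and 2 fell, beside 63.4% of all transcripts called, and in the later step 1 rose and 1 fell, beside 31.0%.

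All 16 cofactors on the list were tested, and 14 were called for day 4 against day 0, 7 higher and 7 lower, beside 72.3% of all transcripts called, 36.2% higher and 36.1% lower. The median log2 fold change of the 16 was 0.13. The largest rises were those of the acetyltransferase coactivators Ep300 (log2 fold change 0.87, SE 0.11, adjusted p 2.79e-05) and Crebbp (0.82, SE 0.11, adjusted p 4.79e-05). Sap30, which bridges Sin3 and histone deacetylases, fell by 1.74 on the log2 scale (SE 0.18, adjusted p 5.35e-06). Fhl3, a LIM protein that binds KLF3, fell by 1.33 (SE 0.15, adjusted p 1.13e-05). The partners of the members that rose did not move one way, and these were chosen after their values were seen. Ctbp1 and Ctbp2, the corepressors of KLF3, had log2 fold changes of −0.53 and −0.51 (adjusted p 0.00170 and 0.00196), Sin3b one of 0.60 (adjusted p 0.000360) and Sin3a one of 0.03 (adjusted p 0.809). By day 2, 5 cofactors had risen and 7 had fallen, beside 63.4% of all transcripts called, and from day 2 to day 4, 2 rose and 2 fell, beside 31.0%.

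KLF10 and KLF11 are induced by TGF-beta in other cells, and 6 of the 7 genes listed for that route were tested. Tgfbr2, the receptor that binds the ligand, was at 0 in every library. At day 4 against day 0, 4 were higher and 1 lower (median log2 fold change 0.55), beside 72.3% of all transcripts called and 36.2% called higher. Smad7, an inhibitor of the pathway and one of its direct targets, rose from 1.99 and 2.90 CPM at day 0 to 6.62 and 5.83 CPM at day 4 (log2 fold change 1.34, SE 0.22, adjusted p 0.000197). Smad3, which carries the signal to the nucleus, had a log2 fold change of 0.88 (SE 0.11, adjusted p 3.40e-05), and the ligand gene Tgfb1 fell by 0.62 (SE 0.12, adjusted p 0.000942). From day 0 to day 2, 3 rose and 1 fell, beside 63.4% called. From day 2 to day 4, 0 of the 6 were called by edgeR, beside 31.0% of all transcripts, with 3 at an unadjusted p below 0.05, and 1 was called by DESeq2.

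The MEK5, ERK5, MEF2 and FOXO route, induces Klf2 and Klf4 in other cells. Of 9 listed genes, 8 were tested, and at day 4 against day 0, 4 were higher and 1 lower (median log2 fold change 0.55). These 5 calls in 8 are a share near the background, as 72.3% of all transcripts were called. Foxo1, a FOXO factor that drives Klf2 in lymphocytes, rose from 9.95 and 10.0 CPM at day 0 to 22.9 and 26.5 CPM at day 4 (log2 fold change 1.31, SE 0.13, adjusted p 3.89e-06). Map3k2, a kinase upstream of MEK5, rose by a log2 fold change of 1.14 (SE 0.11, adjusted p 3.07e-06), and its relative Map3k3 fell by 0.71 (SE 0.15, adjusted p 0.00130). The earlier step had 4 rises and 2 falls, beside 63.4% of all transcripts called, and the later step 2 rises, beside 31.0%.

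Of 6 genes for the hormone receptors that induce Klf9 and for glucocorticoid targets, 5 were tested and Thrb was at 0. At day 4 against day 0, 3 were higher and 1 lower (median log2 fold change 0.35), beside 72.3% of all transcripts called. The thyroid hormone receptor gene Thra had a log2 fold change of 1.01 (SE 0.13, adjusted p 4.21e-05). Of the glucocorticoid-responsive genes, Per1 had one of 0.77 (SE 0.13, adjusted p 0.000257) and Fkbp5 fell by 0.46 (SE 0.11, adjusted p 0.00229). By day 2, 2 had risen, beside 63.4% of all transcripts called, and in the later step 1 rose and 1 fell, beside 31.0%.

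Of the genes listed as targets of KLF3 or KLF2, 3 could be tested and all 3 were called at day 4 against day 0, beside 72.3% of all transcripts. Lgals3, which KLF3 represses in other cells and which encodes galectin-3, had 211 and 147 counts at day 0, 36 and 45 at day 2, and 6 and 6 at day 4, and fell by 4.75 on the log2 scale (SE 0.40, adjusted p 1.36e-06). C1qtnf12, also repressed by KLF3 elsewhere, moved the other way, from 1.54 and 1.33 CPM at day 0 to 4.18 CPM in both day 4 libraries (log2 fold change 1.54, SE 0.20, adjusted p 2.94e-05). Itgb7, an integrin gene linked to KLF2, had 8.09 and 6.45 CPM at day 0 and 14.0 and 14.7 CPM at day 4 (log2 fold change 0.99, SE 0.17, adjusted p 0.000290). The median of the 3 was 0.99. Klf8 and Klf12, listed as KLF3 targets, had too few counts to test, as did S1pr1. From day 0 to day 2, 2 rose and 1 fell, beside 63.4% of all transcripts called, and from day 2 to day 4, 1 rose and 2 fell, beside 31.0%.

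**Figure D4:**
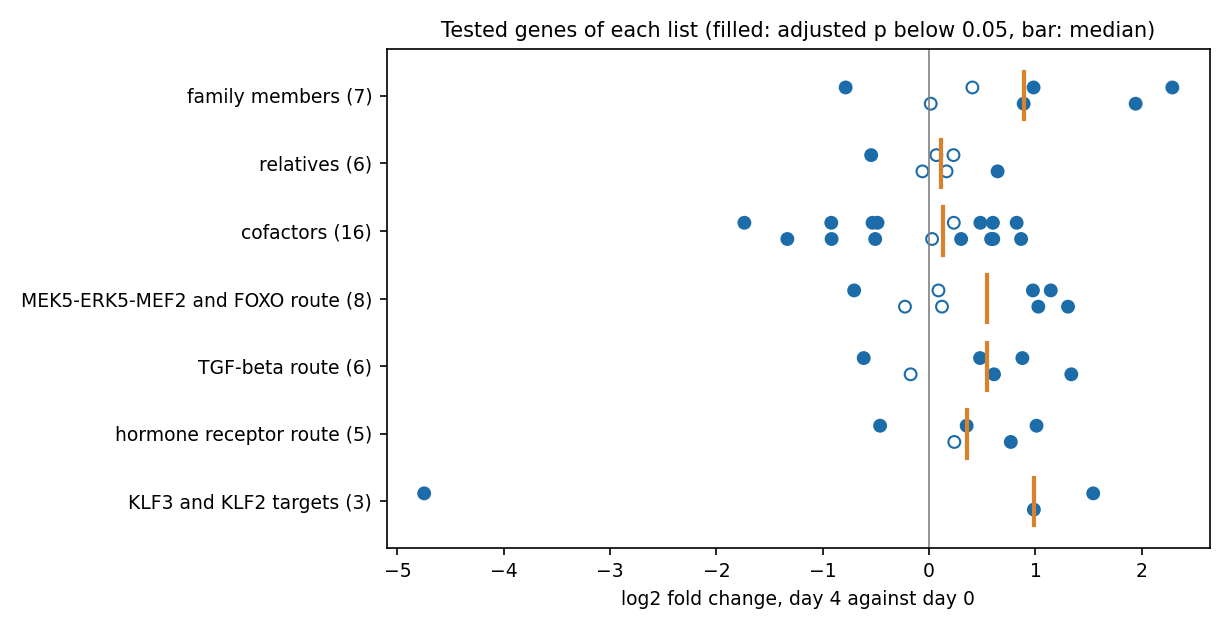
Log2 fold change for day 4 against day 0 (horizontal axis) of the tested members and of the tested genes on each list, with a point per gene, filled where the adjusted p was below 0.05, and a bar at the median. The members' median lies at 0.89, the relatives' at 0.12 and the cofactors' at 0.13, and Lgals3 is the point at −4.75.

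The genes whose pattern was most like those of the 3 members with the widest range of day means were found by the distance between centred log2 CPM values over the 6 libraries, among 10454 genes. Nearest to Klf10 were Pcmtd2 (distance 0.20), at 16.0 and 13.9 CPM at day 0 and 78.9 and 76.2 CPM at day 4, and Wipi1 (distance 0.25), an autophagy gene. Nearest to Klf11 were Prkar2b (distance 0.12), which encodes a regulatory subunit of protein kinase A, and Crebrf (distance 0.17). Nearest to Klf3 were Zfp667 (distance 0.11) and Bcl2 (distance 0.12), the survival gene, at 76.7 and 75.6 CPM at day 0 and 166 and 152 CPM at day 4. Within the family, Klf3, Klf10, Klf11 and Klf13 had Pearson correlations of log2 CPM with each other between 0.92 and 0.98 over the 6 libraries, and Klf6 had correlations between −0.97 and −0.91 with them. With the same 4, Klf7 had correlations between 0.55 and 0.76 and Klf16 between −0.215 and 0.142. The 4 were picked as the members that rose and Klf6 as the one that fell, so their correlations are no separate result. The 6 libraries share the 3 days, and the correlations describe that course and no more.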

How the data were processed

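MEL cells were sampled at days 0, 2 and 4 of treatment with 2% DMSO, with day and replicate taken from the sample labels. The authors made strand-specific TruSeq mRNA libraries, and their processing notes name cutadapt, TopHat, HTSeq, DESeq2 and mm10. They deposited raw read counts for 32654 RefSeq transcripts per library, with no normalization or pooling. The counting mode and its use of strand are not given in the sources used here. No reads were listed as ambiguous, and transcripts of a gene share reads. Antisense and overlapping genes may therefore share counts with Klf7 and Klf13.

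From these counts, edgeR 4.0.16 (R 4.3.3) was run with TMM factors, filterByExpr by day (18351 transcripts kept, 12381 genes) and 1 quasi-likelihood fit over 6 libraries with a mean per day. Benjamini-Hochberg adjusted p below 0.05 was a call. With 2 cultures per day, p-values reflect the spread between these cultures, pooled over the 3 days and moderated by that of other transcripts. The pooling makes no allowance for the wider spread at day 0. The range of depth is given with the results. Reads on no feature were left out. TPM used GENCODE lengths and the transcripts that had one, which held 93.8% of counts, symbols came from RefSeq and GENCODE tables, and promoters from RefSeq.

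The members and lists were chosen with earlier results of these data known. Named genes were all members and Klf1, the 2 largest rises and 2 largest falls among called genes of each list (day 4 against day 0), and 2 pattern neighbours of 3 members, with exceptions said in the text. One listed gene is not reported here. Alternatives were DESeq2 1.42.0, other scalings, no filter, 1 transcript per gene, a fit of 2 days, a log2 fold change of at least 1, the replicate block and leaving out each library. The alternatives for Klf1 were added after the data were seen.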

Additional observations from a re-analysis of the deposited data

How the results depend on the processing

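Of 297 alternative values for the members' log2 fold changes, 280 kept direction and call, 5 lost the call, 4 gained one and 8 changed sign without a call. Of 91 for the difference between steps, 82 kept both, 5 lost the call, 2 gained one and 2 changed sign. The sample labels do not say whether same-numbered cultures were paired. Replicate differences correlated at 0.032, 0.045 and 0.079 between days, so no shared effect of replicate number was seen, which does not settle how the cultures were derived. The fit with the replicate block called 5, 1 and 5 members in the 3 comparisons, as without it. It called 1 TGF-beta gene for day 4 against day 2, where none was called without the block. A limit of 1 on the size of the log2 fold change left 2 members called at day 2 against day 0, 0 at day 4 against day 2 and 2 at day 4 against day 0. Fitting only the 2 days compared called 2 members for day 4 against day 2, Klf13 (0.24) being added to Klf10. Without each library in turn, the number called was 0 to 2 for that step. Total counts gave log2 fold changes of −0.32 for Klf6 and 0.13 for Klf16 at day 2 against day 0, and 0.52 for Klf7 at day 4 against day 0. The same scaling gave step differences of −0.026 for Klf6, −0.67 for Klf13 and −0.13 for Klf16, −0.056 for Klf1 at day 4 against day 2, and 1 called gene of the MEK5 and FOXO list in that step. It moved the median of all transcripts by 0.20, −0.08 and 0.11 in the 3 comparisons. Klf16 at day 4 against day 0 was −0.006 with relative log expression factors and −0.003 with DESeq2, which called 1 TGF-beta gene for day 4 against day 2. Without each library in turn, log2 fold changes at day 2 against day 0 ran from −0.65 to −0.40 for Klf6 and from −0.029 to 0.10 for Klf7. At day 4 against day 2 they ran from 0.46 to 0.75 for Klf10, −0.046 to 0.008 for Klf11, 0.13 to 0.35 for Klf13 and −0.047 to 0.10 for Klf1. At day 4 against day 0, Klf16 ran from −0.062 to 0.076. Step differences ran from −0.96 to −0.50 for Klf3, −1.22 to −0.93 for Klf10 and −0.53 to −0.26 for Klf13. The cause of these shifts was not tested, beyond the fewer libraries in such fits, and a day left with 1 library is assumed to vary like the others. TPM values were 1.40 to 1.46 times higher with 1 transcript per gene in the total, by the same factor for all members of a library. Depth limits Klf7 most among the tested members and sets the limit on Klf2, Klf4 and Klf9.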
